A study of Solanum tuberosum with 9 samples.

Results

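The leaf transcriptomes of potato plants with low phytotoxicity (B’) were compared with those of plants with high phytotoxicity (A’), which served as the control. The comparison was chosen by its libraries, 3 of A’ and 3 of B’, which are 6 of the 9 libraries of the series, and it takes in every gene counted in them. Both groups are untreated greenhouse plants of the diploid hybrid population 15-1 (Solanum tuberosum), obtained in the study from a cross of a diploid potato clone with the wild species Solanum chacoense, and their leaves were taken at full anthesis. Both were labelled as high in glycoalkaloids, and they differ in how strongly an aqueous leaf extract inhibits the growth of mustard seedlings. Each group is a single bulk of 3 individuals picked for its phenotype, and how the 3 libraries of a bulk arose is not said in the sources used here. The plants carry segregating alleles, so a difference between the bulks cannot be told apart from a difference between these few genotypes, and p-values measure only the spread between libraries, which may be technical.

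Phytotoxicity is the harm that compounds released by one plant do to the growth of another. In potato leaves, candidate compounds include the steroidal glycoalkaloids α-solanine and α-chaconine, which are made from cholesterol, and flavonoids and other phenolics. Plants also keep an inducible defence: receptors at the cell surface and inside the cell recognise microbes, the hormones salicylate, jasmonate and ethylene relay the signal, WRKY and other transcription factors respond, and pathogenesis-related (PR) proteins are made.

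Counts on genes summed to between 21199110 and 22346210 per library. Of 23501 genes listed, 19059 had enough counts to be tested, and the leaf origin was checked with 44 leaf markers, of which 43 were tested. Their summed normalized counts were 3370000 to 4170000 in A’ and 1790000 to 2150000 in B’, and 38 of them were lower in B’, where 16.5% of all tested genes were lower. Patatin, the storage protein of tubers, did not reach the tested level, at 10.3 to 15.1 summed normalized counts in A’ and 1.84 to 2.58 in B’. Markers of flower organs, pollen and anthers, and stem vascular tissue summed to 453–505, 4040–4660 and 965–1070 in A’ and to 463–769, 3800–4270 and 516–567 in B’. The part of organ make-up in the results was not tested. Normalized counts are counts divided by each library’s TMM-adjusted size relative to the average of the 6, and the Log2FC is positive where B’ was higher.

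Among the tested genes, 6274 (32.9%) were DEGs, with an FDR (the Benjamini-Hochberg adjusted p of edgeR’s quasi-likelihood test) under 0.05. The counts of 3127 DEGs (16.4% of tested genes) were higher and those of 3147 (16.5%) were lower in B’. With a cutoff of 2 on the size of the Log2FC, 649 DEGs (3.41%) were left, 402 (2.11%) on the higher and 247 (1.3%) on the lower side. This split depends on the scaling, because the 100 most abundant genes took 32.85% to 35.25% of the counts in A’ and 25.62% to 27.77% in B’. When libraries were scaled by their total counts instead of by TMM, an alternative chosen after seeing the data, the median Log2FC of all tested genes moved from 0.022 to 0.295, and 6298 DEGs were higher and 1647 lower. The counts of B’ replicate 3 come from a column named B3A, whose suffix the sources used here do not explain. This library stood apart from the other B’ libraries on the second principal component (32.99, against −28.04 and −9.49), and it held the highest value of the B’ libraries for 55.2% of the DEGs that were higher in B’. Without B’ replicate 3, 6431 genes were DEGs. A’ replicate 1 also stood apart from the other A’ libraries on that component (20.82, against −11.26 and −5.02). It held the highest value of the A’ libraries for 49.5% of the DEGs that were lower in B’. Without A’ replicate 1, 5327 genes were DEGs. The smallest two-sided p-value that exact permutation allows for one gene, with 3 libraries per group, is 0.1.

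Genes were sorted by words in their product names into 61 classes, which took 6566 of the tested genes and 2603 of the DEGs. Flavonol synthase, photosystem and cell wall polysaccharide classes were set aside, and 57 of the other 58 classes had at least 10 tested genes. In 26 of these 57 classes more DEGs were higher in B’, and in 30 more were lower. The largest shares of DEGs higher in B’ were those of WRKY factors (58.5%), wall-associated, cysteine-rich and LysM receptor kinases (56.1%), NAC factors (47.1%), PR proteins (45.6%), receptor-like proteins (45.5%), salicylate regulators (45.2%) and glutathione S-transferases (44.7%). Histones, aquaporins, protease inhibitors, O-methyltransferases, pigment synthesis, plastid electron transport, sterol synthesis and the Calvin cycle had the most DEGs lower in B’ for their size. With total-count scaling the leading direction turned in 19 of the 57 classes, none of which is among those just named. Where a class is described as turning in the paragraphs that follow, this scaling is meant.

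**Figure D1:**
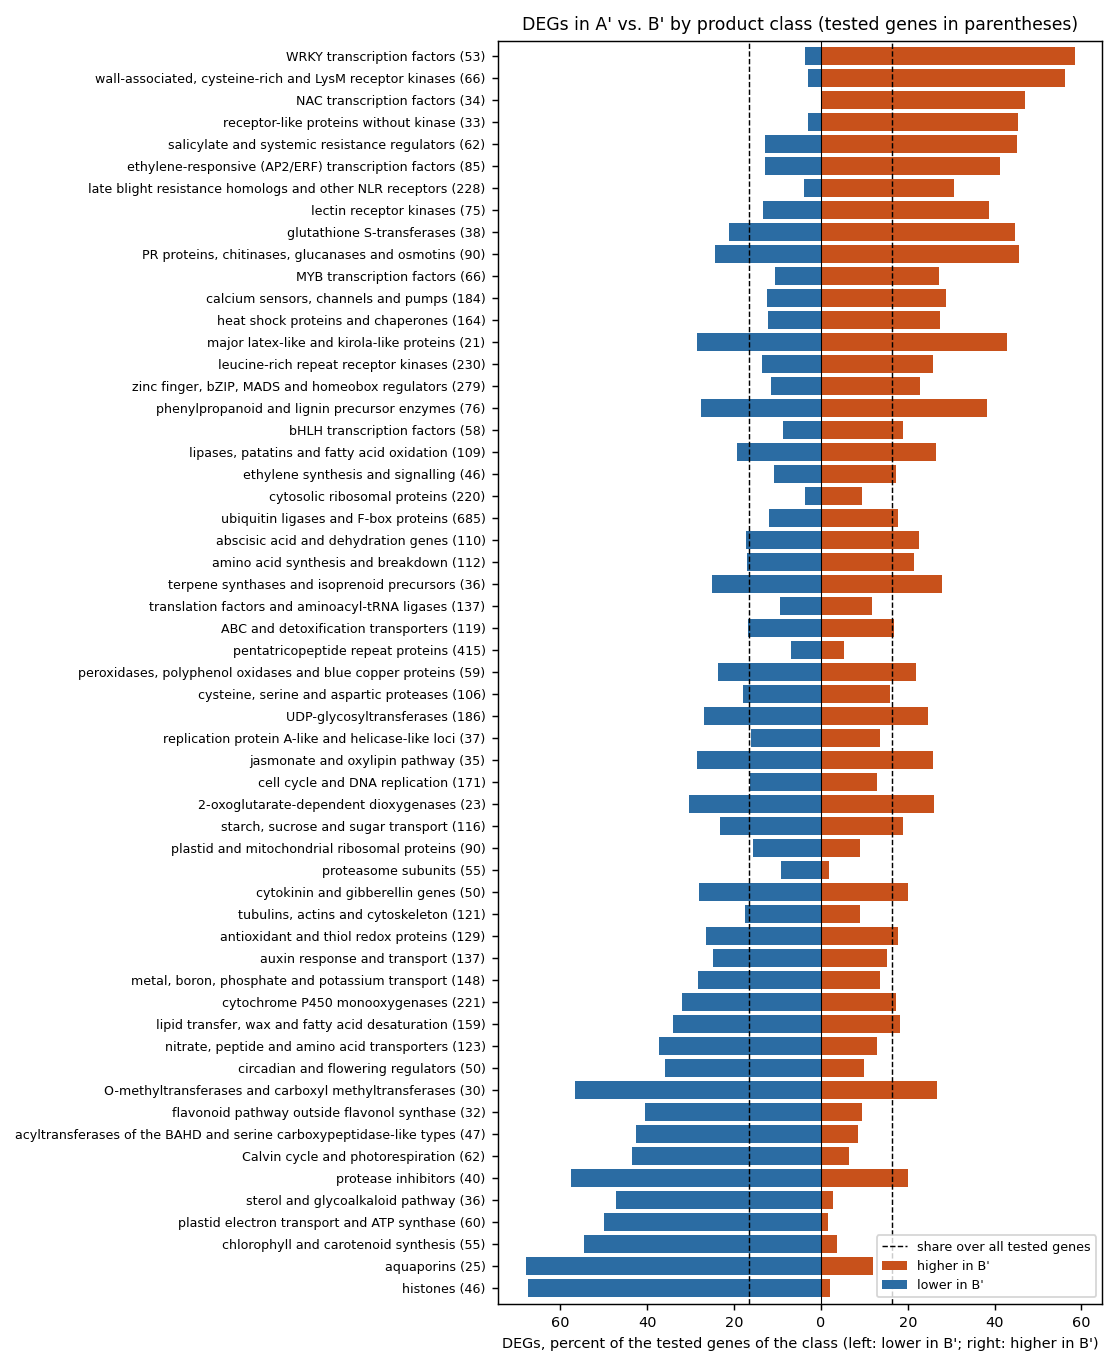
Share of the tested genes of each product class that were DEGs higher (orange, to the right) or lower (blue, to the left) in B’, in percent, for the 57 classes with at least 10 tested genes. Dashed lines mark the shares over all tested genes (16.4% and 16.5%). WRKY factors reach 58.5% higher, and aquaporins reach 68% lower.

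**Figure D2:**
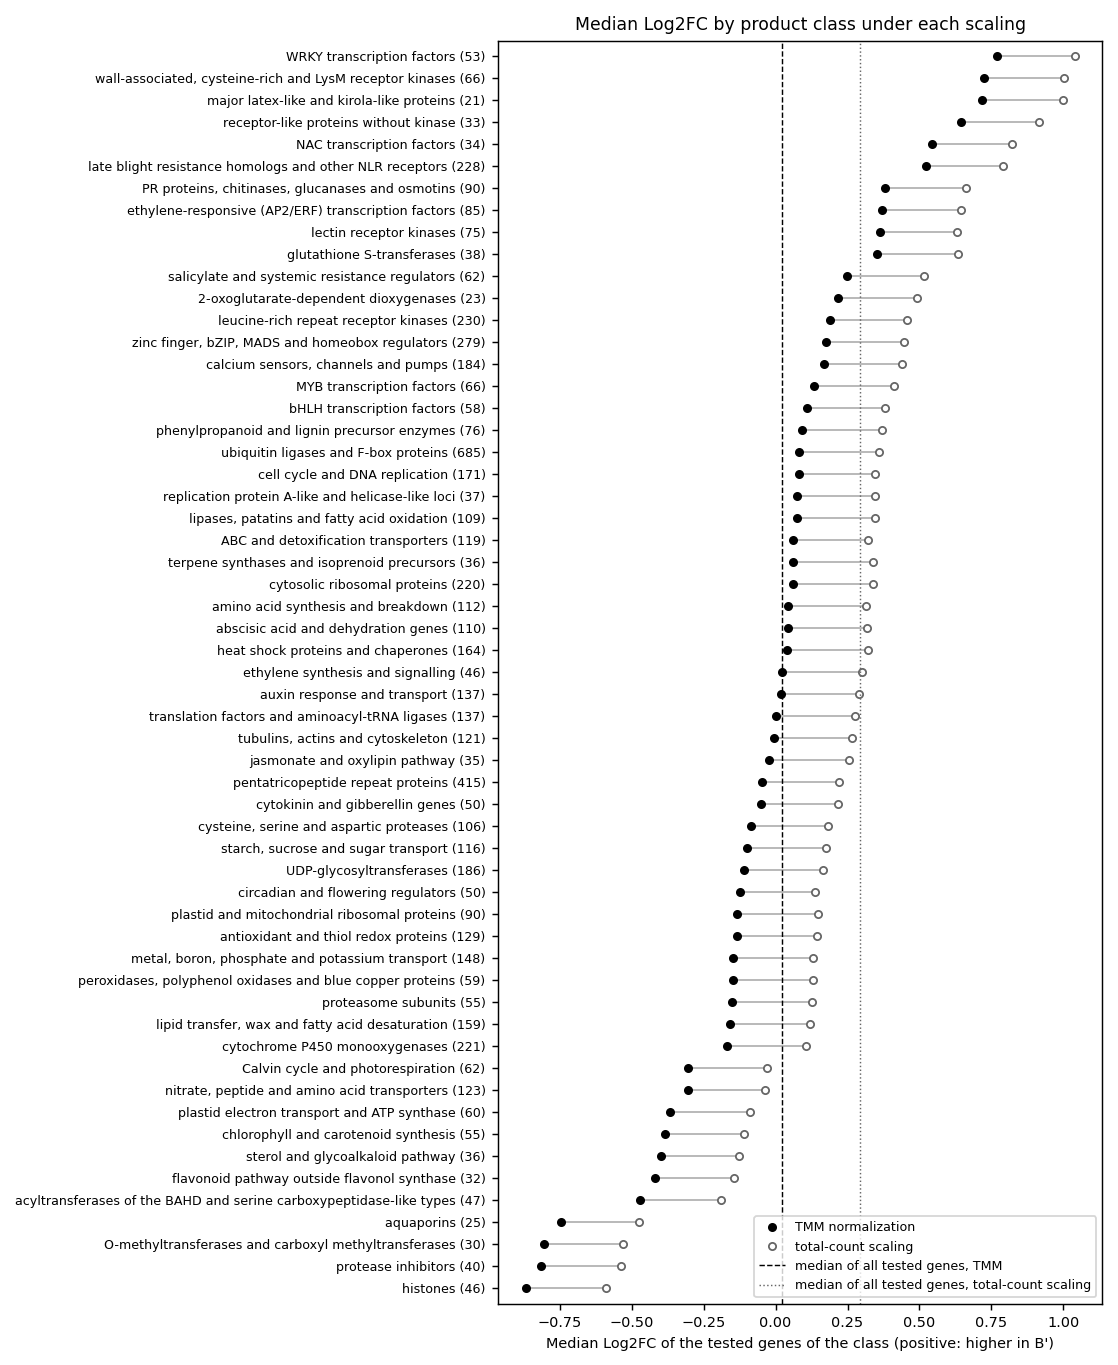
Median Log2FC of the tested genes of each class with TMM normalization (filled points) and with total-count scaling (open points), with the medians of all tested genes as vertical lines (0.022 and 0.295). Every class moves to the right by a similar amount. WRKY factors stay highest (0.771 and 1.04) and histones lowest (−0.868 and −0.588).

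In each of the 5 classes of immune receptors more members were higher than lower in B’, although most members of the NLR and leucine-rich repeat classes did not pass the test in either direction. Of 66 wall-associated, cysteine-rich and LysM receptor kinases, which sense wall fragments and chitin at the cell surface, 37 rose (56.1%) and 2 fell, with a median Log2FC of 0.725. Receptor-like proteins without a kinase, several of which recognise fungal proteins in tomato, had 15 of 33 members higher and 1 lower. Late blight resistance homologs and other NLR receptors, which detect pathogen effectors inside the cell, had 70 of 228 members higher and 9 lower (median 0.522). Of 75 lectin receptor kinases, 29 were higher and 10 lower. Of the 230 leucine-rich repeat receptor kinases, 59 were higher and 31 lower. The summed counts of the lectin and leucine-rich repeat classes overlapped between the groups. Total-count scaling gave 43, 16, 106, 39 and 85 members higher in these 5 classes and 1, 0, 4, 2 and 13 lower. The lower counts of the last 3 classes moved when 1 library was left out. They were 4 without A’ replicate 2 or 3 or B’ replicate 1 or 2 for NLR receptors, 5 without A’ replicate 2 or 3 or B’ replicate 2 for lectin kinases, and as low as 16 without A’ replicate 2 and also over 1.5 times lower without A’ replicate 3 for leucine-rich repeat kinases.

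The receptor genes with the largest changes lay far above the medians of their classes, which were 0.725, 0.644, 0.522, 0.362 and 0.188 in the order given. Wall-associated receptor kinase 2-like (LOC102584582) had 78, 56 and 62 counts in A’ against 691, 777 and 879 in B’ (Log2FC 3.26, standard error 0.164, FDR 1.4e-07). All B’ libraries were far above all A’ libraries. Of 6 tested loci with this product name, 4 were higher. A receptor-like protein kinase At5g39020 homolog (LOC102605075) was counted 37, 57 and 64 times in A’ and 413, 390 and 574 times in B’ (Log2FC 2.80). The product name receptor-like protein kinase At1g67000 is shared by 13 tested loci, of which 11 were higher and 1 was lower, and the summed normalized counts of the 13 were 1020, 1050 and 1140 in A’ and 1510, 1600 and 1960 in B’. One of the loci named for the flagellin receptor FLS2 (LOC107058375) rose from 11, 13 and 11 counts to 135, 116 and 198 (Log2FC 3.34, FDR 4.02e-06), and 4 of 6 loci of this name were higher. A chitin elicitor receptor kinase 1-like gene (LOC102580181), taken up after its values were seen, had 14, 16 and 13 counts in A’ against 92, 73 and 184 in B’ (Log2FC 2.68), with the highest count in B’ replicate 3.

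NLR genes include large families of similar loci. TMV resistance protein N is the product name of 53 tested loci, of which 19 were higher and 1 was lower in B’. One of them (LOC107057669) had 8, 13 and 12 counts in A’ against 63, 74 and 133 in B’ (Log2FC 2.69, FDR 0.000127). Putative late blight resistance protein homolog R1B-23 (LOC102581752) had 38, 98 and 85 counts in A’ and 453, 331 and 361 in B’ (Log2FC 2.06), and 4 of 8 loci of that name were higher. In the opposite direction, a putative disease resistance protein RGA1 gene (LOC102578701) fell from 132, 216 and 181 to 69, 90 and 66 counts (Log2FC −1.54). Reads of such similar loci could have been split between them or assigned to the wrong copy when they were counted, and this holds for all the multigene families named here.

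Downstream of the receptors, regulators of salicylate signalling and systemic acquired resistance also had more members higher than lower in B’. Their median Log2FC was 0.248, against 0.022 over all tested genes. Of 62 tested members, 28 were higher (45.2%) and 8 lower, and with total-count scaling 34 were higher and 4 lower. Without A’ replicate 3 the number of higher members was 22, the lowest among the fits that left out 1 library, and 4 were lower. The lower count was 5 without A’ replicate 1, A’ replicate 2 or B’ replicate 1. The complex of EDS1 with PAD4 or SAG101, which carries the signal of many NLR receptors, had higher genes for each of its parts. Both EDS1-like loci rose. LOC102598075 had 698, 837 and 777 counts in A’ against 4148, 4168 and 4149 in B’ (Log2FC 2.11, standard error 0.116, FDR 2.48e-07), and LOC102597661 had 524, 562 and 546 against 1656, 1787 and 1993 (Log2FC 1.42). The libraries of a group differed little for these genes, and the groups were far apart. Of 4 tested SAG101-like genes (senescence-associated carboxylesterase 101), 3 were higher, with Log2FC of 2.46 (LOC102586314), 2.85 (LOC102585975) and 2.95 (LOC107062546). Counts of LOC102585975 were 104, 112 and 80 in A’ and 767, 916 and 976 in B’. Lipase-like PAD4 (LOC102579438) had 367, 456 and 360 counts in A’ and 1009, 1010 and 1088 in B’ (Log2FC 1.08, FDR 3.53e-05).

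Genes for the synthesis of the mobile signal, for the control of this synthesis and for salicylate perception were in the same list. SAR DEFICIENT 1, which in Arabidopsis regulates genes of N-hydroxypipecolic acid synthesis and is not an enzyme of this pathway, had a pair of higher loci. Of these, LOC102604313 went from 8, 11 and 1 counts in A’ to 173, 180 and 295 in B’ (Log2FC 4.67, standard error 0.398, FDR 6.15e-06), and LOC102585109 from 504, 622 and 615 to 2310, 2304 and 3468 (Log2FC 1.89). Aminotransferase ALD1 (LOC102580299), the enzyme that opens that pathway, had 5, 3 and 6 counts in A’ against 57, 42 and 64 in B’ (Log2FC 3.19, FDR 5.8e-05). In contrast, of 4 tested genes named for flavin-containing monooxygenase 1, the last enzyme of the pathway in Arabidopsis, 2 were lower. LOC102605841 was at 35, 35 and 31 counts in A’ and at 1, 2 and 3 in B’, that is, at least 14-fold lower. A group with no more than 3 counts in each of its libraries is said here to be at the floor. For it, an at least fold is computed against 3 counts per library. Such a fold is a bound on the ratio of the counts seen, and it makes no allowance for counting error. The other lower monooxygenase gene, LOC102580947, fell from 78, 66 and 80 to 35, 35 and 46 counts. The salicylate receptors rose by less. NPR1 (LOC102592156) had a Log2FC of 0.60 (counts 128, 158 and 141 in A’ and 243, 268 and 295 in B’) and NPR3 (LOC102590218) one of 0.79. NIM1-INTERACTING 2 (LOC102597487), which binds NPR1 and is induced by salicylate in Arabidopsis, had 168, 111 and 135 counts in A’ against 1088, 1460 and 2451 in B’ (Log2FC 3.26, FDR 4.86e-06), and B’ replicate 3 was the highest. Isochorismate synthase (LOC102589572), an enzyme of a main route to salicylate that was named after its values were seen, was counted 32, 55 and 49 times in A’ and 36, 34 and 76 times in B’, and its libraries overlapped (Log2FC −0.22, FDR 0.631). Among the 8 lower members were 2 genes named for NPR5, a relative of NPR1 that acts in leaf and flower shape in Arabidopsis. Of the 36 DEGs of the list, 26 kept their call in each fit that left out 1 library.

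**Figure D3:**
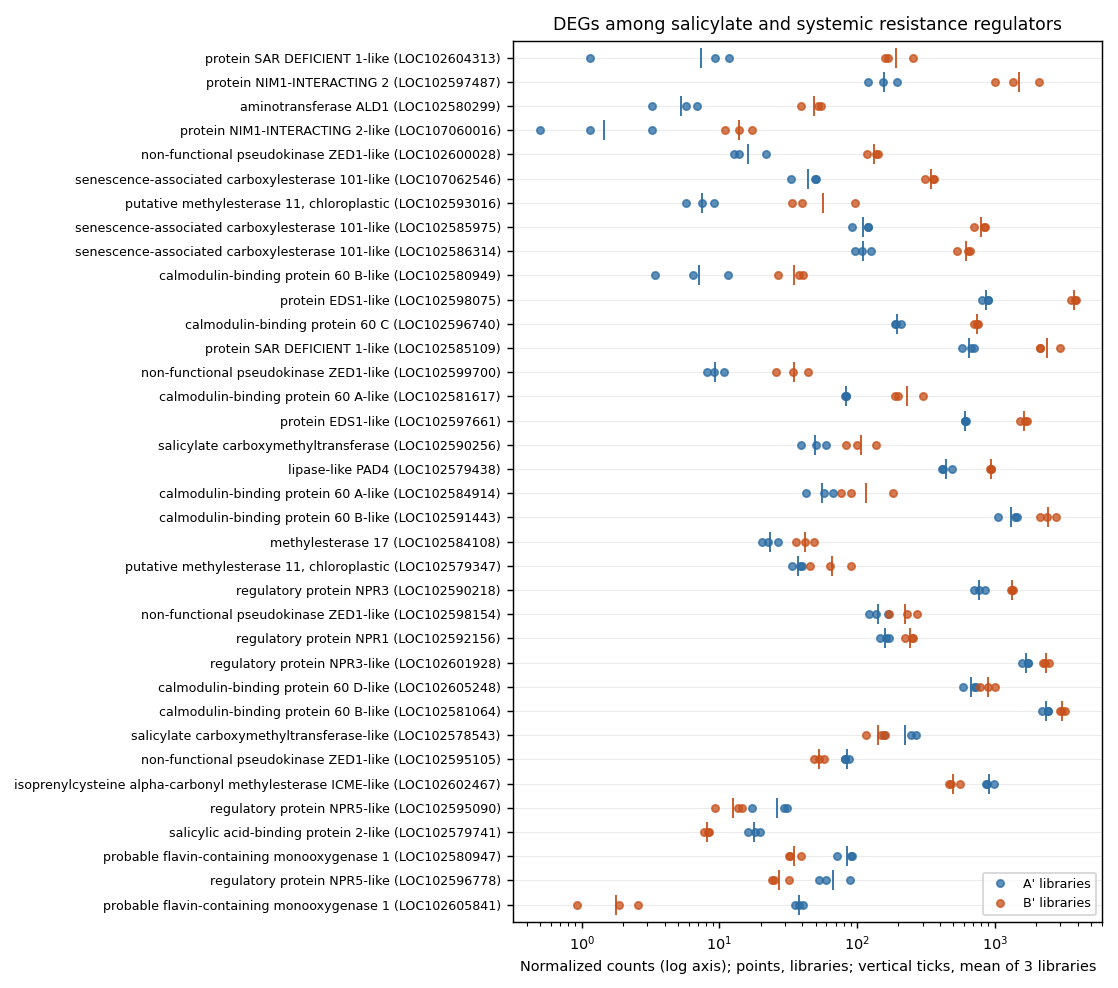
Normalized counts (log axis) of the 36 DEGs among salicylate and systemic resistance regulators in each A’ library (blue) and B’ library (orange), ordered by Log2FC, with the mean of the 3 libraries of a group as a vertical tick. A library with 0 counts is drawn at 0.5. The upper 28 genes are higher in B’ and the lower 8 are lower.

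Transcription factors tied to defence followed the same direction. WRKY factors were the class with the largest share of risers, with 31 of 53 higher, 2 lower and a median Log2FC of 0.771. Their summed normalized counts were 23700 to 26900 in A’ and 44300 to 58100 in B’. WRKY transcription factor 51 (LOC102604232) had 49, 69 and 62 counts in A’ against 750, 1003 and 1736 in B’ (Log2FC 3.94, standard error 0.277, FDR 1.61e-06). WRKY transcription factor 75-like (LOC102583094) was at the floor in A’ with 2, 1 and 2 counts and had 66, 83 and 120 in B’, at least 23.8-fold higher. In both genes the B’ libraries differed among themselves, and replicate 3 was highest. NAC transcription factors, which include regulators of leaf ageing, had 16 of 34 members higher and 0 lower by edgeR’s quasi-likelihood test. In the lower direction 1 member had an unadjusted p under 0.05, and DESeq2 called 0, while total-count scaling gave 22 higher. NAC2 had 202, 267 and 256 counts in A’ and 1046, 1292 and 1283 in B’ (FDR 1.51e-06), and LOC102591523, of the same product name, had 148, 115 and 131 against 524, 656 and 773 (Log2FC 1.98). Of 85 ethylene-responsive (AP2/ERF) factors, 35 were higher and 11 lower, or 46 and 4 with total-count scaling, and 7 were lower without A’ replicate 1. The leading ones were RAV1 (LOC102588131, counts 144, 119 and 130 in A’ and 941, 1106 and 1101 in B’, Log2FC 2.68) and ERF 5-like (LOC102585525, Log2FC 2.53), while ERF 1-like (LOC102597083) fell from 103, 131 and 101 to 12, 15 and 25 counts. MYB factors had 18 members higher and 7 lower of 66 (11 lower without B’ replicate 3, and 25 and 5 with total-count scaling), led by myb-related protein 308-like (LOC102600960, counts 45, 35 and 31 against 392, 494 and 721, Log2FC 3.52). Zinc finger protein ZAT10-like (LOC102589957), a stress-induced repressor, had 42, 51 and 51 counts in A’ against 237, 288 and 480 in B’ (Log2FC 2.47).

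Pathogenesis-related proteins had the largest relative rise of summed counts among the classes, from 55100–63900 in A’ to 129000–151000 in B’. Of 90 tested genes, 41 were higher (45.6%) and 22 lower (24.4%), so the class changed in both directions, and 19 DEGs passed a Log2FC of 2 while 2 passed −2. An acidic glucanase, isoform PR-Q’-like (LOC102605428), an enzyme that cleaves β-1,3-glucan of fungal walls, had 311, 345 and 371 counts in A’ against 11060, 13073 and 11534 in B’ (Log2FC 4.80, standard error 0.15, FDR 9.94e-09). PR protein P2-like (LOC102581074), a chitin-binding protein, had 249, 247 and 296 counts in A’ and 7892, 11061 and 14149 in B’ (Log2FC 5.06, FDR 4.15e-08). Both genes were far higher in every B’ library than in any A’ library. PR protein STH-2-like (LOC102591512), taken up after its values were seen, had 0, 1 and 0 counts in A’ against 18, 13 and 43 in B’ and was at least 6.47-fold higher in B’. Other members of the class were lower. Endochitinase 4-like (LOC102592970) fell from 660, 635 and 724 to 54, 72 and 72 counts (Log2FC −3.67, FDR 4.79e-08), and a PR-1-like gene (LOC102581167) from 528, 510 and 601 to 158, 164 and 148 (Log2FC −2.12). Among the higher DEGs of the class, 3 are transcriptional activators named after PR genes rather than PR proteins.

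**Figure D4:**
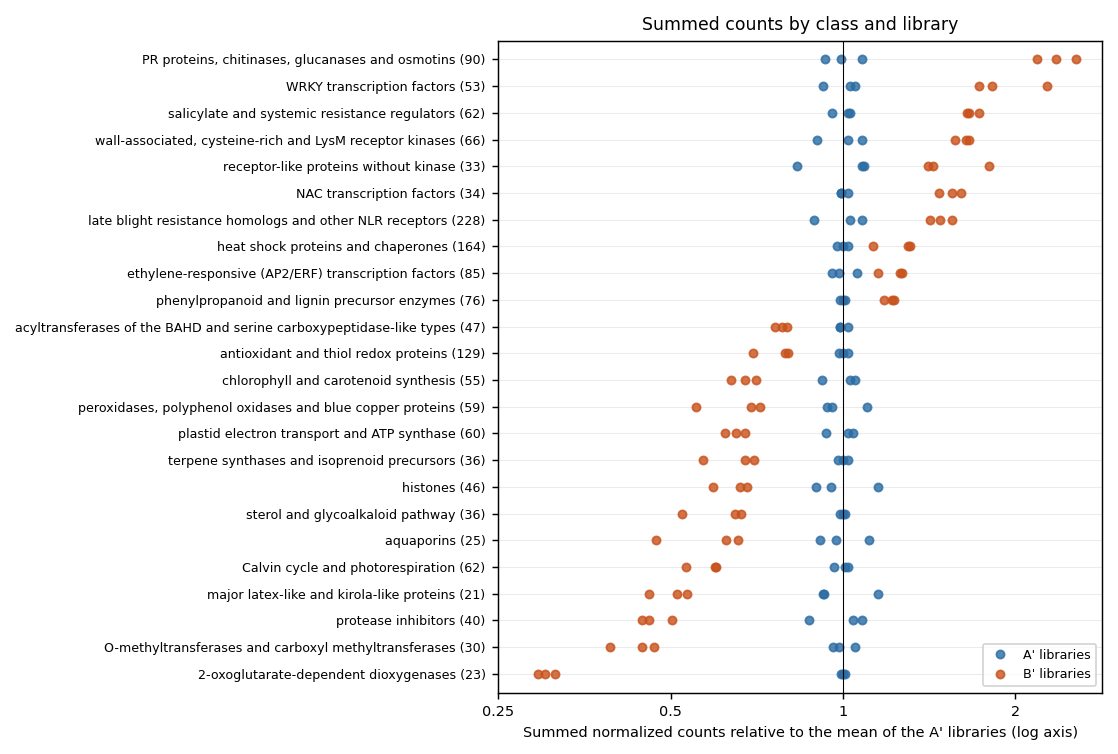
Summed normalized counts of a class in each A’ library (blue) and B’ library (orange), relative to the mean of the A’ libraries (log axis), for the 14 classes with the lowest and the 10 with the highest mean in B’. The A’ and B’ libraries do not overlap in any class drawn. A sum follows its most abundant genes and can go against the count of DEGs, as for kirola-like proteins.

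Single genes of ethylene and lipid signalling differed strongly between the groups. ACO1, an oxidase that makes ethylene, had 933, 1041 and 845 counts in A’ against 7080, 8250 and 13798 in B’ (Log2FC 3.04, standard error 0.208, FDR 1.33e-06), and 1-aminocyclopropane-1-carboxylate oxidase 4 (LOC102584001) had 205, 210 and 188 against 1347, 1614 and 2774 (Log2FC 2.92). The ethylene class as a whole had 8 of 46 members higher (17.4%) and 5 lower (10.9%), or 21 and 3 with total-count scaling, and 3 were lower without A’ replicate 1, A’ replicate 3 or B’ replicate 2. Lipoxygenase POTLX-3, a linoleate 9S-lipoxygenase, had 1, 13 and 18 counts in A’ against 349, 369 and 502 in B’ (Log2FC 4.92, FDR 2.77e-06). Allene oxide synthase (LOC102577479), which commits lipids to jasmonate, fell from 3053, 2467 and 2769 to 1727, 1767 and 1308 counts (Log2FC −1.10). The jasmonate class had 9 members higher and 10 lower of 35, and it turned to 15 and 5. Glutathione S-transferases, which conjugate reactive compounds, had 17 of 38 members higher and 8 lower, or 21 and 2 with total-count scaling, and 5 lower without A’ replicate 2. The summed normalized counts of this class overlapped between the groups, at 35700 to 44400 in A’ and 39100 to 46700 in B’. Among the 17 tested loci named probable glutathione S-transferase 12 were higher and 1 was lower. The most abundant of those named by the rule (LOC102599054) had 498, 500 and 356 counts in A’ and 2634, 3537 and 5527 in B’ (Log2FC 2.78). Calcium sensors, channels and pumps had 53 higher and 23 lower of 184 (87 and 11 with total-count scaling), led by glutamate receptor 3.6-like (LOC102594716, counts 3, 8 and 1 against 77, 62 and 84, Log2FC 3.86). The summed counts of the calcium class overlapped between the groups as well.

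Phenylalanine ammonia-lyase opens the phenylpropanoid pathway, from which lignin, flavonoids and hydroxycinnamic acid amides derive. Of the 9 tested loci of that name without a number, 6 were higher and 2 lower, and their summed normalized counts were 2590, 3580 and 3070 in A’ and 4820, 4710 and 4480 in B’. Phenylalanine ammonia-lyase 1 (LOC102596891), named after its values were seen, had 520, 675 and 604 counts in A’ against 2222, 2223 and 2353 in B’ (Log2FC 1.60, standard error 0.119, FDR 2.15e-06). Tyramine N-feruloyltransferase joins ferulic acid to tyramine into amides that are deposited in walls at infection sites. Among its 6 loci 5 were higher and 1 was lower, and the sums were 1270, 1210 and 1280 in A’ and 2860, 3670 and 4050 in B’. The locus with the largest change (LOC102606060) had 36, 35 and 39 counts in A’ and 246, 352 and 514 in B’ (Log2FC 3.00). The class of phenylpropanoid and lignin precursor enzymes as a whole had 29 members higher and 21 lower of 76 (37 and 16 with total-count scaling), so both directions exceeded the shares over all genes. A secoisolariciresinol dehydrogenase-like gene (LOC102605361) fell from 281, 261 and 221 to 55, 45 and 62 counts (Log2FC −2.55), while 4 of the 7 loci of this name were higher. Histidine decarboxylase, which makes histamine, had 5 of 7 loci higher, with a median Log2FC of 2.22. For LOC102580376, named after its values were seen, the counts were 18, 39 and 24 in A’ and 104, 127 and 159 in B’.

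Protease inhibitors, which are made after wounding and insect attack and in part under jasmonate, went the other way. Of 40 tested genes, 23 were lower (57.5%) and 8 higher, and with total-count scaling 22 were lower and 11 higher. Their summed normalized counts were 102000 to 127000 in A’ and 52300 to 59000 in B’. Aspartic protease inhibitor 8 (LOC102604256) had 1869, 1744 and 1717 counts in A’ against 279, 330 and 264 in B’ (Log2FC −2.93, standard error 0.142, FDR 1.15e-07). Cysteine protease inhibitor 8-like (LOC102577909) fell from 105, 71 and 112 to 12, 3 and 7 counts (Log2FC −4.01). Among the members that rose, serine protease inhibitor 5-like (LOC102599070) was at the floor in A’ (1, 0 and 2 counts) and at 40, 82 and 78 counts in B’, at least 17.8-fold higher. A kunitz-type trypsin inhibitor (LOC102592480) had 4, 13 and 8 against 139, 146 and 234 counts (Log2FC 4.03). Leucine aminopeptidase (LOC102595887), another protein of the wound response in the tomato family, fell from 868, 923 and 844 to 190, 177 and 225 counts (Log2FC −2.47, FDR 1.14e-07).

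Genes of sterol synthesis were lower in B’ at many steps of the pathway. Of 36 tested members, 17 were lower (47.2%) and 1 was higher, and with total-count scaling 13 were lower and 4 higher. The summed normalized counts were 70400 to 71600 in A’ and 37200 to 47300 in B’, without overlap. Of the early steps, squalene synthase (LOC102581159), which joins farnesyl units into squalene, had a Log2FC of −0.57 (counts 2325, 2556 and 2239 in A’ and 2018, 2005 and 1940 in B’), and squalene monooxygenase-like (LOC102579136) one of −1.05 (counts 7123, 7869 and 7467 against 4640, 4696 and 4160). Sterol 14-demethylase (LOC102601151) had 8089, 9828 and 8878 counts in A’ against 5516, 4955 and 4022 in B’ (Log2FC −1.20, FDR 0.000101). The methylsterol monooxygenases, which remove the C-4 methyl groups, had 4 tested loci, all lower. The largest changes among them were those of LOC102589817, a 2-2-like gene, from 2143, 1978 and 2300 to 337, 351 and 286 counts (Log2FC −3.04), and LOC102606141, a 1-1-like gene, from 1530, 1347 and 1270 to 275, 277 and 234 (Log2FC −2.72).

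Further genes named for sterol enzymes were also lower, and whether they serve cholesterol or other plant sterols was not tested. Delta(24)-sterol reductase-like (LOC102584296), of the enzyme family that saturates the sterol side chain, had 4410, 5739 and 4962 counts in A’ against 709, 719 and 500 in B’. All A’ libraries were above 4000 counts and all B’ libraries were below 1000, with a Log2FC of −3.28 (standard error 0.179, FDR 2.48e-07). Delta(7)-sterol-C5(6)-desaturase (LOC102587419) had 2535, 2762 and 2739 counts in A’ and 807, 843 and 798 in B’ (Log2FC −2.03), and 7-dehydrocholesterol reductase-like (LOC102604909) had 1100, 1089 and 1167 against 454, 429 and 402 (Log2FC −1.70). The single member that was higher was cycloartenol-C-24-methyltransferase 1 (LOC102581721), which leads cycloartenol away from cholesterol towards the C-24 alkylated plant sterols. It had 850, 811 and 745 counts in A’ against 1324, 1376 and 1624 in B’ (Log2FC 0.52, standard error 0.117, FDR 0.00512). Of the 18 DEGs of the list, 15 kept their call without each library in turn, and the isomerase SI1, LOC102597068, LOC102605717 and LOC102581012 lost it with total-count scaling.

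A gene of the last step of glycoalkaloid synthesis stood with them. Rhamnose:beta-solanine/beta-chaconine rhamnosyltransferase (LOC102577928) adds the terminal sugar of α-solanine and α-chaconine. It was sorted among the UDP-glycosyltransferases by its name and was singled out after its values were seen. Its counts were 1724, 1665 and 1694 in A’ and 165, 159 and 117 in B’. Normalized, this gave a mean of 1910 ± 101 (SD, n = 3) in A’ and of 133 ± 28.4 in B’, and the Log2FC was −3.84 (standard error 0.166, FDR 5.12e-08), between −3.94 and −3.67 without each library in turn. An unplaced contig holds it, from base 279904 to 281586. Both groups were labelled as high in glycoalkaloids. Upstream of sterols, 3-hydroxy-3-methylglutaryl-coenzyme A reductase 2 (LOC102577899), of the enzyme that sets the flow into the mevalonate pathway, was higher, with 175, 244 and 238 counts in A’ against 1040, 1069 and 984 in B’ (Log2FC 1.92, FDR 2.25e-06). It too was named after its values were seen, and whether it serves sterol synthesis was not tested.

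**Figure D5:**
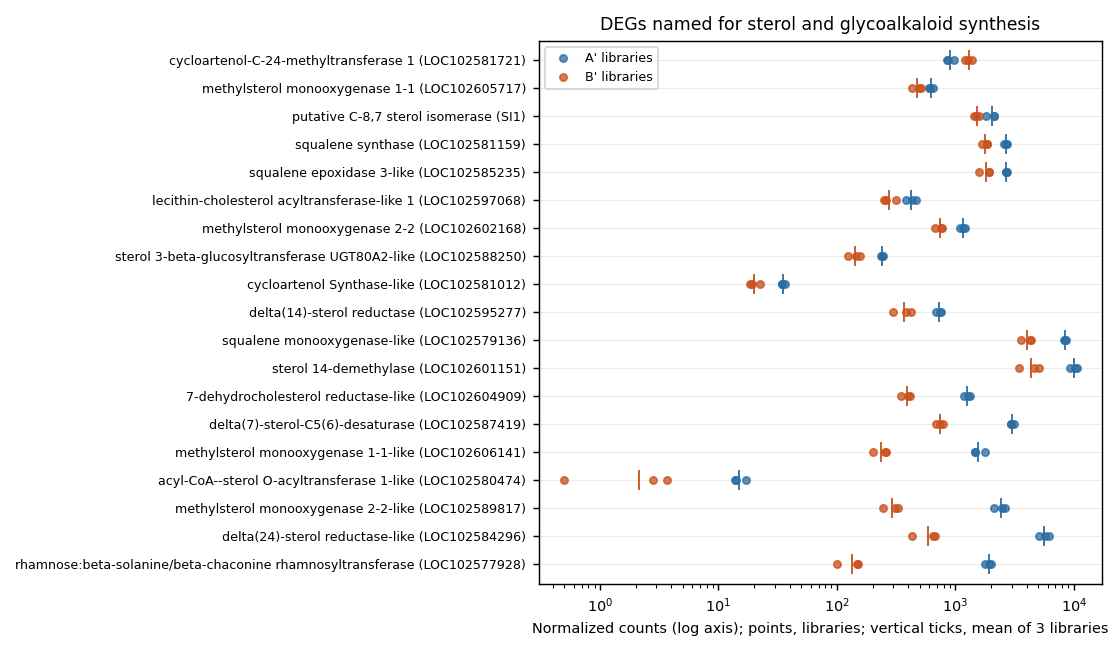
Normalized counts (log axis) of the 18 DEGs of the sterol and glycoalkaloid class and of the solanine/chaconine rhamnosyltransferase in each A’ library (blue) and B’ library (orange), ordered by Log2FC, with the mean of 3 libraries as a vertical tick. A library with 0 counts is drawn at 0.5. Only cycloartenol-C-24-methyltransferase 1, at the top, is higher in B’.

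Other enzymes of specialised metabolism differed strongly gene by gene. Hyoscyamine 6-dioxygenase (LOC102602308), named for an oxidase of tropane alkaloids of the 2-oxoglutarate-dependent type, had 18507, 19636 and 18876 counts in A’ against 3643, 3853 and 3564 in B’ (Log2FC −2.68, standard error 0.121, FDR 6.07e-08). In A’ it carried most of the counts of its class, whose sums were 26000 to 26400 in A’ and 7710 to 8230 in B’. The mean of this gene in B’ was 3330 normalized counts. By number of genes, 6 of the 23 members of the class were higher and 7 lower, and the class turned to 9 and 7. More were also higher than lower with DESeq2, without A’ replicate 3 and without B’ replicate 1. Myricetin O-methyltransferase-like (LOC102593171), whose tomato relatives methylate flavonols in glandular trichomes, had 1737, 1709 and 1685 counts in A’ against 12, 25 and 39 in B’ (Log2FC −6.39, FDR 3.01e-08). In A’ it made up most of the counts of a list of 7 markers of glandular trichomes, the secretory hairs of the leaf. The sums of the list were 1920 to 2080 in A’ and 114 to 132 in B’. In B’ this gene had 11, 23.2 and 33.5 normalized counts, so the drop of the sum followed this gene. Of the 4 members of that list that were tested, 1 was higher and 1 lower, and acylsugar acyltransferase 3-like (LOC102597608), named after its values were seen, was the higher one with 2, 2 and 1 against 41, 38 and 41 counts. Whether the number of trichomes differed was not tested, and fewer cells of a type and less RNA per cell cannot be told apart in bulk leaves. O-methyltransferases as a class had 17 of 30 members lower and 8 higher, or 13 and 8 with total-count scaling, and 5 higher without A’ replicate 3 or B’ replicate 2. The product name trans-resveratrol di-O-methyltransferase-like held changes both ways: LOC102601252 had 82, 80 and 86 counts in A’ and 0, 2 and 0 in B’, at least 34.4-fold lower, and LOC102590422 had 29, 40 and 29 against 175, 146 and 188 (Log2FC 2.05). Acyltransferases of the BAHD and serine carboxypeptidase-like types had 20 of 47 members lower and 4 higher (13 and 7 with total-count scaling), and serine carboxypeptidase-like 11 (LOC102585638) fell from 240, 289 and 243 to 27, 24 and 20 counts (Log2FC −3.75).

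Cytochrome P450 monooxygenases and UDP-glycosyltransferases, the large families that oxidise and glycosylate plant metabolites, had DEGs in both directions. Of 221 P450 genes, 71 were lower (32.1%) and 38 higher (17.2%), and the class turned to 59 lower and 65 higher. Over all tested genes the shares were 16.5% lower and 16.4% higher, so the P450 share higher was near that of all genes. Premnaspirodiene oxygenase, named for an oxidase of sesquiterpene phytoalexins, was the product of 22 tested loci with 10 lower and 5 higher. Among them LOC102604954 fell from 74, 87 and 74 to 5, 4 and 1 counts (Log2FC −4.81), and LOC102604276 from 65, 41 and 44 to 2, 0 and 2, at least 20.9-fold lower. Cytochrome P450 71A3 had 5 of 6 loci lower, with sums of 6300, 6290 and 6160 in A’ and 2230, 2240 and 2080 in B’. Rising members were flavonoid 3’-monooxygenase-like (LOC102588381), with 27, 30 and 42 counts in A’ and 617, 620 and 696 in B’, and P450 71D11-like (LOC102603333), with 175, 237 and 202 against 2332, 2661 and 3433 (Log2FC 3.46). Of 186 glycosyltransferases, 46 were higher (24.7%) and 50 lower (26.9%), and the class turned to 61 and 34. Zeatin O-glucosyltransferase-like (LOC107063221) fell from 94, 123 and 91 to 4, 8 and 5 counts (Log2FC −4.46), and a crocetin glucosyltransferase-like gene (LOC102596548) rose from 2, 3 and 6 to 102, 121 and 136 (Log2FC 4.67). The flavonoid class without flavonol synthase had 13 of 32 members lower and 3 higher, or 8 and 7 with total-count scaling, and leucoanthocyanidin dioxygenase-like (LOC102582752) had 84, 86 and 81 against 34, 26 and 20 counts (Log2FC −1.96).

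Terpene genes changed in both directions. A geranylgeranyl pyrophosphate synthase 7-like gene (LOC102587251), of the enzyme that makes the precursor of diterpenes and carotenoids, had 55, 36 and 34 counts in A’ against 931, 1127 and 1024 in B’ (Log2FC 4.30, standard error 0.193, FDR 6.07e-08). Copal-8-ol diphosphate hydratase-like (LOC102583793), a diterpene cyclase by name, went from 7, 1 and 1 to 69, 74 and 101 counts (Log2FC 4.38). Of the lower members, beta-caryophyllene synthase-like (LOC102599128) had 74, 118 and 79 against 12, 14 and 14 counts (Log2FC −3.06), and germacrene D synthase-like (LOC102598796) had 210, 232 and 197 against 32, 53 and 49 (Log2FC −2.57). The summed normalized counts of the class, which also holds isoprenoid precursor enzymes, were 100000 to 105000 in A’ and 58400 to 71800 in B’. Over the class, 10 members were higher and 9 lower of 36, or 15 and 7 with total-count scaling. More were lower than higher with DESeq2, at an FDR threshold of 0.01 and without A’ replicate 1, A’ replicate 3, B’ replicate 2 or B’ replicate 3, when 5 to 9 members were higher and 7 to 10 lower over all fits that left out 1 library.

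Photosynthetic metabolism outside the photosystems was lower in B’. Of 62 genes of the Calvin cycle and photorespiration, 27 were lower (43.5%) and 4 higher, and the summed normalized counts were 1840000 to 1950000 in A’ and 1020000 to 1150000 in B’. With total-count scaling 17 were lower and 12 higher. Rubisco activase (LOC102596435), which keeps Rubisco in its active state, had 394812, 423953 and 400402 counts in A’ against 272805, 254338 and 210453 in B’ (Log2FC −1.04, standard error 0.143, FDR 0.000218). Chloroplast carbonic anhydrase (LOC102591490) had 98584, 101361 and 103508 counts in A’ and 37299, 37781 and 38845 in B’ (Log2FC −1.73), and glyceraldehyde-3-phosphate dehydrogenase B (LOC102606161) had 18342, 20085 and 18649 against 6856, 6972 and 7724 (Log2FC −1.72). The A’ libraries were close to each other for these genes, and B’ replicate 3 was the lowest library for Rubisco activase. One of the 4 higher members, methylthioribulose-1-phosphate dehydratase, belongs to methionine salvage and is in the class only by its name. Plastid electron transport and ATP synthase had 30 of 60 members lower and 1 higher, or 17 lower without A’ replicate 3, and 15 lower and 3 higher with total-count scaling. Plastocyanin (LOC102583807), the copper protein that feeds photosystem I, had 56997, 50102 and 48000 against 29607, 32633 and 29634 counts (Log2FC −1.07). Pigment synthesis had 30 of 55 members lower and 2 higher, or 19 lower without A’ replicate 3, and 15 lower and 7 higher with total-count scaling. Phytoene synthase 1 (LOC102593756), the entry to carotenoids, fell from 444, 455 and 372 to 137, 100 and 130 counts (Log2FC −2.11, FDR 1.88e-06), and lycopene beta cyclase (LOC102595971) from 2602, 2869 and 2424 to 1172, 1218 and 1006 (Log2FC −1.53). Enzymes that break chlorophyll down, such as pheophytinase and chlorophyllase, were counted in the same class. The pheophytinase DEGs were lower, whereas chlorophyllase-2-like genes had DEGs in both directions, and one of them (LOC102584485) was among the class’s 2 higher members (Log2FC 0.85, FDR 0.00702).

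Nitrogen genes differed at several steps. The class of nitrate, peptide and amino acid transporters had 46 of 123 members lower (37.4%) and 16 higher, and it turned to 32 and 33. Dual-affinity nitrate transporter NRT1/PTR family 6.3-like (LOC102603215) had 367, 425 and 328 counts in A’ against 69, 53 and 76 in B’ (Log2FC −2.82, standard error 0.162, FDR 3.85e-07), and family 1.2 had 9 of 15 loci lower and 1 higher. Ferredoxin--nitrite reductase NIR fell from 11552, 12356 and 11138 to 6761, 6858 and 6738 counts (Log2FC −1.10). Purine permease 1-like (LOC102581812) fell from 1989, 1818 and 1548 to 122, 144 and 141 (Log2FC −4.04). Asparagine synthetase (LOC102577576), which packs nitrogen for transport in ageing or carbon-poor leaves, rose from 186, 233 and 158 to 3637, 4823 and 4385 counts (Log2FC 4.16, FDR 4.15e-08). Tyrosine aminotransferase-like (LOC102578536) had 2, 4 and 4 against 137, 125 and 121 (Log2FC 4.90). In sugar metabolism 22 members were higher and 27 lower of 116, with cell wall invertase CWINV3-like (LOC102604100, 5, 9 and 5 against 43, 73 and 89 counts) among the highest and the sucrose exporter SWEET12-like (LOC102591902, 156, 169 and 161 against 68, 71 and 50 counts) among the lowest. That class turned with total-count scaling (31 and 12), at an FDR threshold of 0.01 and without A’ replicate 2, A’ replicate 3 or B’ replicate 2, when 17 to 23 members were higher and 14 to 27 lower over all fits that left out 1 library.

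Aquaporins are the water channels of the plasma membrane and the vacuole. They had the largest share of lower DEGs among the 57 classes with at least 10 tested genes outside those set aside. Of 25 tested members, 17 were lower (68%) and 3 higher. Total-count scaling gave 14 lower and 4 higher. PIP2-1-like (LOC102585706), of the plasma membrane type, had 2848, 3365 and 2825 counts in A’ against 576, 612 and 373 in B’ (Log2FC −2.84, standard error 0.193, FDR 1.3e-06), and PIP1-1 (LOC102581374) had 1399, 1294 and 1399 against 335, 346 and 277 (Log2FC −2.41). B’ replicate 3 was the lowest library for both. The higher members were not of this type: NIP1-1-like (LOC102591600) had 120, 144 and 101 against 310, 275 and 294 counts and SIP1 had 304, 268 and 247 against 525, 651 and 674, and the third (LOC102589703) is a TIP1-1 gene with at most 22 counts in any library. Among ion transporters, 42 of 148 were lower and 20 higher, turning to 21 and 35. Boron transporter 4 (LOC102601556) fell from 357, 510 and 361 to 20, 13 and 20 counts (Log2FC −4.84, FDR 5.82e-08). Metal transporter Nramp5-like (LOC102584518), of a family that carries iron and manganese, was at the floor in A’ (1, 2 and 2 counts) and had 236, 265 and 335 in B’, at least 74.1-fold higher. It lies between positions 671786 and 676788 of a contig assigned to chromosome 11. Iron transporter Fe(2+) transport protein 1-like (LOC102581599) had 31, 41 and 46 against 575, 575 and 521 counts (Log2FC 3.51). Ferritin-3 (LOC102577652), the iron store of plastids, also rose, from 30, 27 and 41 to 121, 180 and 259 counts (Log2FC 2.18).

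Histones, which are made mainly while DNA is replicated, were lower in B’ in 31 of 46 tested genes (67.4%) and higher in 1, with a median Log2FC of −0.868. With total-count scaling 24 were lower and 3 higher. Histone H3.2 was the product of 9 loci, of which 8 were lower. Their summed normalized counts were 1640, 1320 and 1280 in A’ and 482, 589 and 542 in B’, so the groups were well apart. LOC102581522, one of these loci, had 87, 103 and 87 counts in A’ against 19, 25 and 22 in B’ (Log2FC −2.38, FDR 1.44e-05). Cell cycle and DNA replication genes did not move as a class, with 22 of 171 higher and 28 lower, the former below and the latter at about the share over all genes, and they turned to 53 and 17. Leaving out any 1 of the A’ libraries or B’ replicate 2 moved one of these counts by over 1.5 times, to as few as 9 higher and 17 lower. Cyclin-A2-2-like (LOC102604868) had 47, 61 and 43 against 25, 25 and 20 counts (Log2FC −1.42). Growth hormones gave mixed results. Auxin-induced protein 15A, a SAUR family name, had 7 of 12 loci lower, with sums of 4300, 3500 and 3680 in A’ and 1450, 1570 and 1320 in B’. The cytokinin-activating enzyme LOG had opposite loci, LOC102581470 falling from 1120, 1051 and 1043 to 153, 205 and 249 counts (Log2FC −2.73) and LOC102598045 rising from 9, 12 and 15 to 61, 86 and 123 (Log2FC 2.57).

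Light and clock regulators were lower more often than higher, 18 against 5 of 50, or 9 against 8 with total-count scaling. Of 3 tested FLOWERING LOCUS T-like genes 2 were lower. One (LOC102579194), of the family that moves from leaf to shoot tip to set flowering or tuber formation, had 463, 408 and 320 counts in A’ against 74, 121 and 60 in B’ (Log2FC −2.53, standard error 0.248, FDR 1.73e-05). Clock gene APRR1 (LOC102593655) fell from 64, 80 and 82 to 17, 21 and 14 counts (Log2FC −2.42), and HY5 (LOC102588526), the regulator of light responses, from 458, 347 and 339 to 88, 112 and 112 (Log2FC −2.20). The time of day of sampling for each bulk is not given in the sources used here, and its part in these genes was not tested.

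Protein homeostasis showed many small changes in very abundant genes. Heat shock proteins and chaperones had 45 of 164 members higher and 20 lower, or 67 and 9 with total-count scaling, and 11 lower without A’ replicate 3. They had sums of 591000 to 619000 in A’ and 683000 to 794000 in B’. The 5 most abundant DEGs that were higher in B’ all belonged to this class. Heat shock cognate 70 kDa protein 2-like (LOC102580808) had 101325, 117728 and 101712 counts in A’ against 215019, 208645 and 192474 in B’ (Log2FC 0.63, standard error 0.125, FDR 0.00247). Another locus of that product name (LOC102593249) fell from 34372, 37846 and 31909 to 16522, 15723 and 13377 counts (Log2FC −1.50), and such copies may share reads. Small heat shock proteins rose from low levels: the chloroplastic one (LOC102584503) was at 0, 2 and 2 counts in A’ and 75, 81 and 87 in B’, at least 21.6-fold higher, and a 17.4 kDa class I gene (LOC102588416) had 15, 15 and 18 against 203, 255 and 320 (Log2FC 3.68). Cytosolic ribosomal proteins had few DEGs, 21 higher and 8 lower of 220, with a median Log2FC of 0.059, but total-count scaling called 97 higher and 1 lower. The number higher ran from 7 without A’ replicate 2 to 48 without A’ replicate 1, and A’ replicate 3 and B’ replicate 2 also moved it by over 1.5 times. The number lower ran from 2 without A’ replicate 1 to 14 without B’ replicate 3, and B’ replicate 1 also moved it by over 1.5 times. Pentatricopeptide repeat proteins, which process organelle RNA, had fewer DEGs than the shares over all genes, with 22 higher (5.3%) and 29 lower (6.99%) of 415, turning to 60 and 11. Leaving out any 1 of the A’ libraries moved one of these counts by over 1.5 times, to as few as 7 higher and 18 lower, and without B’ replicate 3 more were higher than lower.

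A further set of genes was at the floor in one of the groups. Of the tested genes, 66 were at the floor in A’ and 43 in B’. They passed the filter on low counts only through the group where they were high, so that all were called carries no information. Of these, 6 and 14 had 0 counts in each library of the lower group. As bounds on the ratio of the counts seen, the lowest and highest at least folds were 3.37 and 176 for the genes at the floor in A’. They were 4.72 and 227 for those at the floor in B’. Of the 66 genes 34, and of the 43 genes 17, belonged to a product class, and 22 and 18 were uncharacterized or had no product name. Acid phosphatase 1-like (LOC102599299), above the floor in both groups, had 3668, 3223 and 3297 counts in A’ against 58, 72 and 125 in B’ (Log2FC −5.65, FDR 4.15e-08). Werner Syndrome-like exonuclease (LOC102594853) had 667, 474 and 493 counts in A’ and 2, 2 and 3 in B’, at least 227-fold lower. UPF0481 protein At3g02645 (LOC102605914), of unknown function, had 83, 78 and 58 counts in A’ and 0 in each B’ library, at least 30.3-fold lower. Among genes at the floor in A’, uncharacterized protein At1g28695-like (LOC102596031) had 2, 1 and 1 counts in A’ and 71, 137 and 133 in B’, at least 30.3-fold higher, and G-type lectin receptor kinase At4g27290 (LOC107057684), named after its values were seen, was listed at 0 in all A’ libraries and counted 15, 19 and 16 times in B’, at least 4.46-fold higher. An enzyme of inositol breakdown by name, LOC102589144, rose from 11, 10 and 12 to 389, 550 and 697 counts (Log2FC 5.29, FDR 1.19e-07). The 109 floor genes were spread over 93 contigs, 14 of which held more than 1. A silent gene and an absent or diverged allele that reads fail to match cannot be told apart from such counts.

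Over product names rather than classes, 149 names were shared by at least 6 tested genes. More DEGs were higher than lower in 76 of them, more were lower in 48, 7 had no DEG, and 76 had DEGs in both directions. Monothiol glutaredoxin-S1, of a family of small thiol enzymes, had 5 of 7 loci higher, with sums of 510, 461 and 519 in A’ and 1070, 1180 and 1030 in B’. Ankyrin repeat-containing protein At3g12360 had 5 of 8 loci higher, and its locus LOC102601686, named after its values were seen, rose from 13, 15 and 8 to 305, 376 and 450 counts (Log2FC 4.64, FDR 1.4e-07). Kirola-like and major latex-like proteins, of a family related to PR-10 proteins, had 9 of 21 members higher and 6 lower, yet their summed counts were lower in B’ (13600 to 15800, against 27300 to 34100), and LOC107063488 fell from 14350, 12579 and 10589 to 4008, 4350 and 4890 counts (Log2FC −1.82). In the same family LOC102581115 rose from 49, 52 and 55 to 325, 417 and 666 (Log2FC 2.84).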

How the data were processed

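Leaf mRNA of 3 A’ and 3 B’ libraries was sequenced as 100-bp paired-end reads with a directional kit on a BGISEQ-500. The authors deposited raw counts per gene in one table of higher and one of lower genes, which were joined here by gene. Bowtie2 2.1.0, TopHat2 2.0.9 and DESeq2 are named in the submitters’ processing notes. The genome build is not given in the sources used here, and the contigs carry names of SolTub_3.0, in whose RefSeq annotation 99.37% of the matched genes have the same start and end. How strand was used in counting is not given in the sources used here, so reads of overlapping antisense genes may be mixed. The deposited normalized values, fold changes and p-values of the authors’ own comparison were not used. The tables of the other comparison were not used here.

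Counts were filtered by filterByExpr, normalized by TMM and tested with the robust quasi-likelihood test of edgeR 4.0.16 (R 4.3.3) on these 6 libraries, with Benjamini-Hochberg adjustment over all 19059 genes tested. The scripts were tested on simulated data. Positions are those of the deposited tables. No sequences were used here. Named genes were, by rule, the 10 largest rises and falls among DEGs outside the classes set aside, the 2 highest and 2 lowest DEGs of each class (libraries not overlapping, mean of at least 50 normalized counts in either group), the 5 floor genes with the most counts on each side, all DEGs of the salicylate and sterol classes, and the 5 most abundant DEGs on each side, and any other gene is marked where it is named or shares a named product. The classes, lists and rule were chosen with earlier results of these data known. The alternatives tried were upper-quartile normalization, DESeq2 1.42.0, testing without the filter, a replicate block, an FDR threshold of 0.01, leaving out each library, and total-count scaling, which was chosen after seeing the data.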

Additional observations from a re-analysis of the deposited data

How the results depend on the processing

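The number of DEGs in A’ vs. B’ was 6054 with DESeq2, 6218 with upper-quartile normalization, 7945 with total-count scaling, 6539 with no filter on low counts and 3778 at an FDR threshold of 0.01. Leaving out 1 library gave 4417 to 6431. DEGs higher in B’ numbered 6298 with total-count scaling, 1854 at an FDR threshold of 0.01 and 2205 to 3153 without 1 library, and DEGs lower in B’ 1647, 1924 and 2212 to 3278. DEGs after the cutoff numbered 986 with no filter on low counts, where genes of few counts entered, and 658 to 788 without 1 library. Whether the same replicate numbers in both groups pair the libraries is not said in the sources used here. The deviations of same-numbered libraries from their group means had correlations of −0.23, −0.15 and 0.01. Those of other pairs across the groups ran from −0.11 to 0.22. These values cannot decide the question, because deviations from a mean of 3 libraries depend on each other. A fit with the replicate block gave 5599 DEGs, 2808 higher and 2791 lower. The 291 named genes tested were picked as DEGs of the fit on all 6 libraries, most of them for large changes. That they keep direction and call in refits of the same libraries is therefore partly set by the selection. Of these genes, none changed direction in any alternative, and 259 kept their call without each library in turn. Calls were lost by 9 with DESeq2, 1 with upper-quartile normalization, 16 with total-count scaling, 2 with no filter, 14 with the replicate block and 35 at an FDR threshold of 0.01. Apart from what an alternative sets by its construction, the cause was not tested. Depth limits the genes at the floor, which are known only through their bounds.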
